A study of Mus musculus with 12 samples.

Results

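Mitochondrial ribosomal protein genes were taken as the protein-coding genes whose symbol begins with Mrpl or Mrps, which gave 78 of the 50600 gene identifiers in the count tables. Of the 78, 49 carry a large subunit symbol (Mrpl) and 29 a small subunit symbol (Mrps). They were followed in CD8+ T cells, the cytotoxic lymphocytes, of lymph nodes from male C57BL/6J mice aged 8 weeks and held in constant darkness. Every library came from animals of this kind, and the libraries differ by the circadian time of collection (CT2, CT6, CT10, CT14, CT18 and CT22) and by the day (day 2 and day 1). There was 1 library for each time on each day, 12 in all, and a group is 2 libraries when times are compared and 6 when days are compared. The number of mice behind each library and the way the cells were purified are not in the labels, so the p-values below measure the spread between these libraries only. In bulk RNA, fewer cells of a type and less RNA per cell cannot be told apart.

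Mitochondria carry their own ribosome, which translates only the 13 mRNAs of the mitochondrial genome, all of them for subunits of the respiratory chain and the ATP synthase. Its RNA components are made in the organelle, while every one of its proteins is encoded in the nucleus, made in the cytosol and imported. Some of these proteins have a counterpart in the bacterial ribosome, and others are found only in mitochondrial ribosomes. T cells rest as small cells until they meet antigen, and their mitochondria grow when they are activated.

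The promoters of 69 of the 78 genes were found in the RefSeq table of mouse build GRCm38.p6, each as 300 bases, of which 250 precede the annotated start and 50 follow it. They were searched on both strands for 6 letter strings known from nuclear genes of mitochondrial proteins or from circadian genes. The ETS string CCGGAAG, the core of sites for the factor GABP, was in 26 of the 69 (37.7%), against 19.6% of 10733 promoters of tested genes and 9.93% of all 27025. The YY1 string AAGATGGC was in 12 (17.4%), against 5.14% of tested genes and 3.19% of all. The NRF1 core string GCATGCGC was in 8 (11.6%), against 5.69% and 3.05%. The E-box CACGTG, the string recognised by the clock factors CLOCK and BMAL1, was in 5 (7.25%), against 11.3% of tested genes and 8.09% of all, and these were the promoters of Mrpl2, Mrpl20, Mrpl36, Mrpl37 and Mrps18c. The cAMP response element TGACGTCA was in 2 (2.90%, against 3.36% of tested genes) and the CCAAT box in 27 (39.1%, against 42.5%). None of these strings contains another of them, although an ETS string can run into a YY1 string. Such matches are descriptions of letters and not of bound sites, and their shares carry no test here.

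Promoters are shown for 4 genes that recur below, each written 5′ to 3′ along the gene. Mrps12 and Mrps18a are 2 of the 3 genes with both an ETS and a YY1 string (the third is Mrps27), Mrps16 had the smallest p at CT2, and Mrps6 had the smallest p at CT14. In Mrps12 (chr7:28741772-28742071, minus strand), Mrps18a (chr17:46110754-46111053, plus strand) and Mrps16 (chr14:20393441-20393740, minus strand, from the downstream of 2 annotated starts) the capitals mark the ETS string CCGGAAG or its reverse complement CTTCCGG and the YY1 string AAGATGGC or its reverse complement GCCATCTT. In Mrps6 (chr16:92058086-92058385, plus strand), whose promoter held none of the 6 strings, the capitals mark the first 8 bases from the GENCODE start of Mrps6 and then the first 8 from the GENCODE start of Slc5a3, a gene on the same strand that overlaps it.
Mrps12: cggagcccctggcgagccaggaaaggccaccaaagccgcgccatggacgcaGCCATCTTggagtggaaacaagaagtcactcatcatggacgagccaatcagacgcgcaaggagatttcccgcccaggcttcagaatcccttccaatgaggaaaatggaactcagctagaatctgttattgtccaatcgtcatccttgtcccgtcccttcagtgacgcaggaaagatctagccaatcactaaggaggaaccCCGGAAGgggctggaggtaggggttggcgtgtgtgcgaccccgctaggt
Mrps18a: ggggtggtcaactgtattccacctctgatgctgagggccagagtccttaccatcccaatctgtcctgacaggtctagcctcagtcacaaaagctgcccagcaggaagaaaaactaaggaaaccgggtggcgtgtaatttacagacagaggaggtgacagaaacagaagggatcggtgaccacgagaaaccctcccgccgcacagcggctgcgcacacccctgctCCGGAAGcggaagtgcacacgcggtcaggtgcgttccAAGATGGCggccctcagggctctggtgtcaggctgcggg
Mrps16: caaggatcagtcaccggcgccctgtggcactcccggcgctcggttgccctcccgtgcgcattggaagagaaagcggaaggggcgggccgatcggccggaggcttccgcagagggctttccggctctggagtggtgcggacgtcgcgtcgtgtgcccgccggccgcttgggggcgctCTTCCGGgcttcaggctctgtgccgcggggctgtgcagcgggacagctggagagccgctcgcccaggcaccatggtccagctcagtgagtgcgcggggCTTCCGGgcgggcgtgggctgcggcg
Mrps6: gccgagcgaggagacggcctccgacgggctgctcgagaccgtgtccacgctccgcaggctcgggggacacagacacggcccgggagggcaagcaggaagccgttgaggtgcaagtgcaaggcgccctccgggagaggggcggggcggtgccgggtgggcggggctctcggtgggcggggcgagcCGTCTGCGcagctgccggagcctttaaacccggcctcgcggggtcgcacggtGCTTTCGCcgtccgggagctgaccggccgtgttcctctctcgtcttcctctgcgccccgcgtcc

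The libraries held 24689964 to 33497078 fragments assigned to genes. The CD8 T cell genes Cd8a, Cd8b1 and Cd3e averaged 1406 ± 99.6, 1119 ± 94.1 and 552 ± 38.0 CPM (counts scaled to a common library size; SD, n = 12), so the labelled cell type had its defining transcripts. Summed markers of other cell types also ranged between libraries, from 122 to 242 CPM for 6 B cell genes, from 280 to 1195 CPM for 10 monocyte and macrophage genes and from 10.0 to 86.8 CPM for 4 neutrophil genes, and no marker of these lists was at 0 in all libraries. CT2 of day 1 stood apart from the other 11 libraries in the values of the members and of short transcripts, as described below. The counts of the 2 libraries of CT2 differed by a chi-square of 40.2 per degree of freedom over genes, against 3.07 to 10.6 for the libraries of the other times. This measure cannot tell which of the 2 libraries differs. In the markers of other cells CT2 of day 2 was at or near the low end, with 122 CPM for B cells and 289 CPM for monocytes and macrophages. CT2 of day 1 had 226 and 826 CPM, within both ranges. Several results that rest on CT2 of day 1 are also given without it.

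For 77 of the 78 genes uniquely assigned counts passed the filter on low values, and the exception, Mrpl53, is described below. Mean TPM (a transcript share that allows for gene length) ran from 9.39 for Mrpl1 to 169 for Mrpl24, a factor of 18.0, with a median of 40.8. The median was 39.7 TPM for the 49 large subunit genes and 46.2 TPM for the 29 small subunit genes. Mrpl24 averaged 169 ± 9.61 TPM, Mrpl33 163 ± 14.5, Mrps21 148 ± 11.7, Mrpl30 146 ± 11.2, Mrpl52 131 ± 4.03, Mrps16 103 ± 7.63, Mrpl58 102 ± 7.03 and Mrps23 92.8 ± 6.21 (SD, n = 12). In this order of the 8 highest, neighbours differed by less than the larger of their SDs, except Mrpl30 and Mrpl52, Mrpl52 and Mrps16, and Mrpl58 and Mrps23. Mrpl58 encodes a peptidyl-tRNA hydrolase that is built into the large subunit and rescues stalled ribosomes. The 5 lowest were Mrpl1 at 9.39 ± 0.72, Mrpl57 at 10.7 ± 0.68, Mrpl11 at 10.8 ± 0.86, Mrps27 at 13.6 ± 0.77 and Mrps31 at 13.7 ± 0.65 TPM, and 12 of the 78 averaged under 20 TPM.

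**Figure D1:**
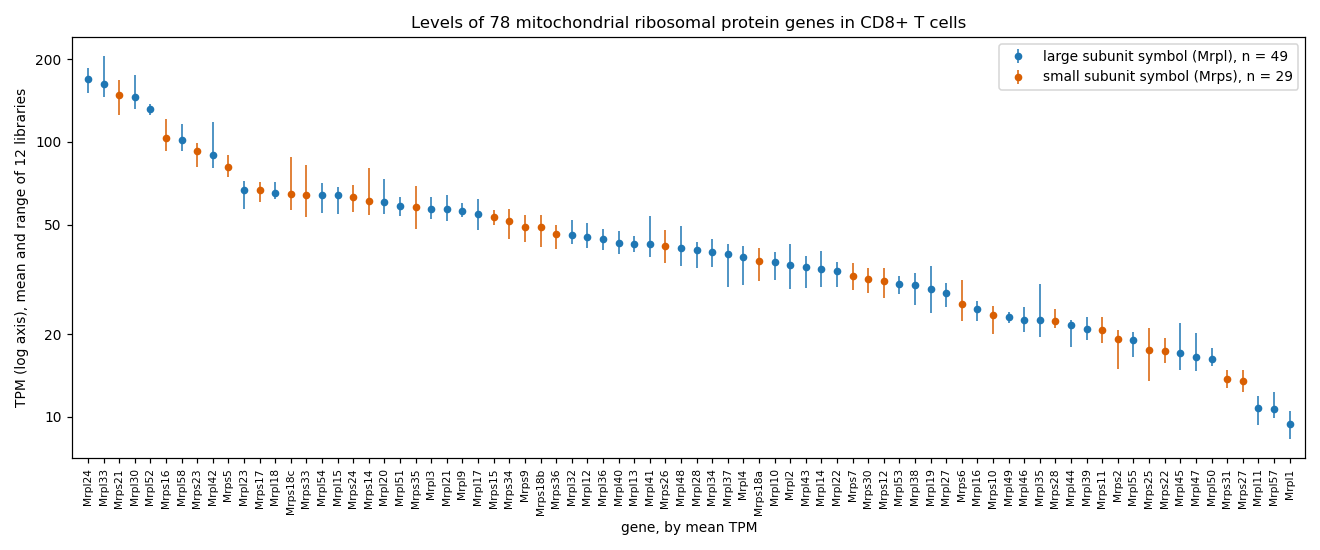
Mean TPM (log axis) of each of the 78 genes in order of level, with bars from the lowest to the highest of the 12 libraries; blue, large subunit symbols, orange, small subunit symbols. Large subunit genes run from 169 TPM (Mrpl24) to 9.39 TPM (Mrpl1), and small subunit genes lie among them, from 148 TPM (Mrps21) to 13.6 TPM (Mrps27).

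Transcripts of large and small subunit genes, as given by symbol, kept nearly the same proportion in all libraries. The place of each product was not checked against its symbol, and Mrps30 and Mrps36, described below, for example count as small subunit genes here. The summed TPM of the 78 genes was 3796 ± 61.6 over the 12 libraries, between 3710 and 3924. The 49 large subunit genes summed to 2395 ± 43.0 TPM and the 29 small subunit genes to 1401 ± 28.4 TPM (SD, n = 12), and their ratio lay between 1.67 and 1.80. The ratio averaged 1.70 ± 0.02 on day 2 and 1.72 ± 0.04 on day 1 (SD, n = 6 each), and was highest, at 1.80, in CT6 of day 1. For scale, and chosen after values were seen, 77 cytosolic ribosomal protein genes summed to 276393 TPM and 84 nuclear respiratory chain genes to 13167 TPM.

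Of the 3 paralogues of bacterial S18, Mrps18c had 64.4 ± 8.34, Mrps18b 49.2 ± 3.60 and Mrps18a 36.9 ± 2.501 TPM. Mrpl10 and Mrpl12, which encode the base and the repeated arm of the ribosomal stalk that recruits translation factors, had 36.5 ± 2.24 and 45.2 ± 2.78 TPM. Mrps12, whose product lies at the decoding site, had 31.2 ± 2.20 TPM, and Mrps30, whose product sits in the large subunit in spite of its symbol, 31.7 ± 1.89 TPM. Mrps36, whose product has been assigned to the 2-oxoglutarate dehydrogenase complex, had 46.2 ± 2.41 TPM (SD, n = 12 for all). Genes with the number of a bacterial protein had a median of 43.5 TPM in the large subunit (28 genes) and 49.2 in the small (16), against 30.5 (21 genes) and 41.8 TPM (13) for genes with a higher number.

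Some of these levels depend on how fragments were assigned. Mrpl53 (chr6:83109040-83109939) had 0 to 3 counts per library (mean 0.83) but 30.5 ± 1.64 TPM, and 695 of its 790 exon bases (88.0%) also belong to Gm42688 on the same strand, so its TPM cannot be assigned to Mrpl53 alone. It was the 1 member that did not pass the filter on low counts, so 77 members entered the tests among 16396 genes. The estimated counts of RSEM, which share out fragments that match several places, exceeded the unique counts 2.88-fold for Mrps33, 1.77-fold for Mrps36, 1.75-fold for Mrps18c, 1.60-fold for Mrpl23 and 1.58-fold for Mrpl33. Mrps33 and Mrpl53 were named after their values were seen.

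Over the day the members varied little. The highest library exceeded the lowest by a median of 1.26-fold in TPM (1.09 to 1.56 over the 78 genes), and in 74 of the 78 by less than 1.5-fold. The SD of log2 CPM over the 12 libraries had a median of 0.11 in the 77 tested members and 0.16 in all tested genes. Genes with a mean CPM within the members' range had a median SD of 0.10. With CT2 of day 1 left out the medians were 0.07 in members, 0.15 in all tested genes and 0.09 in genes of like level.

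The library that moved the members was CT2 of day 1. On the log2 CPM scale the members lay a median of 0.19 above their own means there, 70 of 77 were above, and 49 members had their highest value of all 12 libraries in it, against 19.1% of all tested genes. CT2 of day 2 showed no such shift, with a median of 0.00 and 41 of 77 above their means. In the other 10 libraries the median lay between -0.06 and 0.02, lowest (-0.056) in CT22 of day 2, where 10 of 77 were above. Between the libraries of CT2, the members of day 2 were lower than those of day 1 by a median log2 difference of -0.24, and 62 of 77 were lower. All tested genes had a median difference of -0.00.

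**Figure D2:**
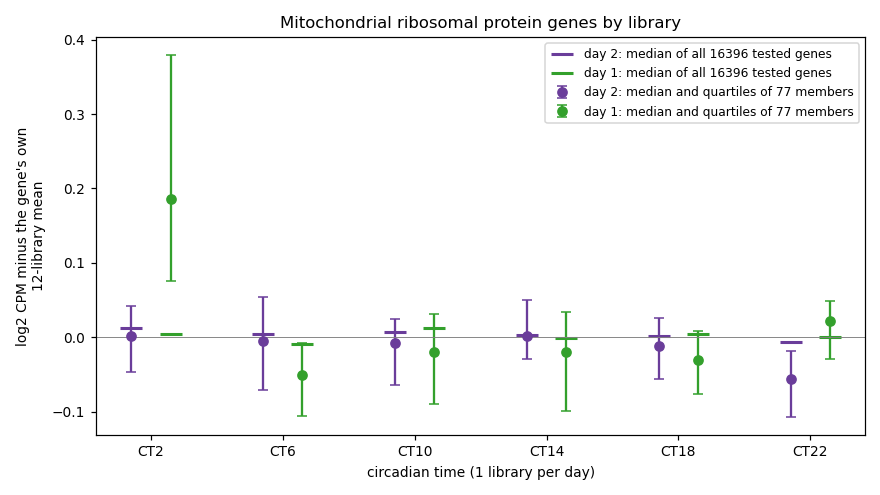
Log2 CPM of the members relative to each gene's own 12-library mean, by circadian time, with day 2 left of day 1. Points and bars are the median and quartiles of 77 members, and dashes are the median of all 16396 tested genes; CT2 of day 1, at 0.19, is the only library far from 0.

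Transcript length moved with the same library. In CT2 of day 1 all tested genes under 700 bases lay a median of 0.26 above their own means, those of 700 to 1000 bases 0.18, of 1000 to 1500 bases 0.08, of 1500 to 2500 bases 0.01, and those over 2500 bases -0.07. The members in the same classes lay 0.28 (11 genes), 0.31 (29), 0.12 (22) and 0.15 (14) above, and Mrpl11, the 1 member over 2500 bases, 0.35. The members' median length was 969 bases, against 2111 in all tested genes. Cytosolic ribosomal protein genes, with a median of 665 bases, lay 0.48 above their means in this library, and nuclear respiratory chain genes, with a median of 683 bases, 0.35. In CT2 of day 2 no length class of all genes was further than 0.02 from 0. The TPM scale shifted all tested genes by -0.21 in CT2 of day 1 and left the members at 0.01, so that the members were 0.22 above the median gene on that scale too. The part of length, and of RNA quality, in the members' deviation was not tested.

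**Figure D3:**
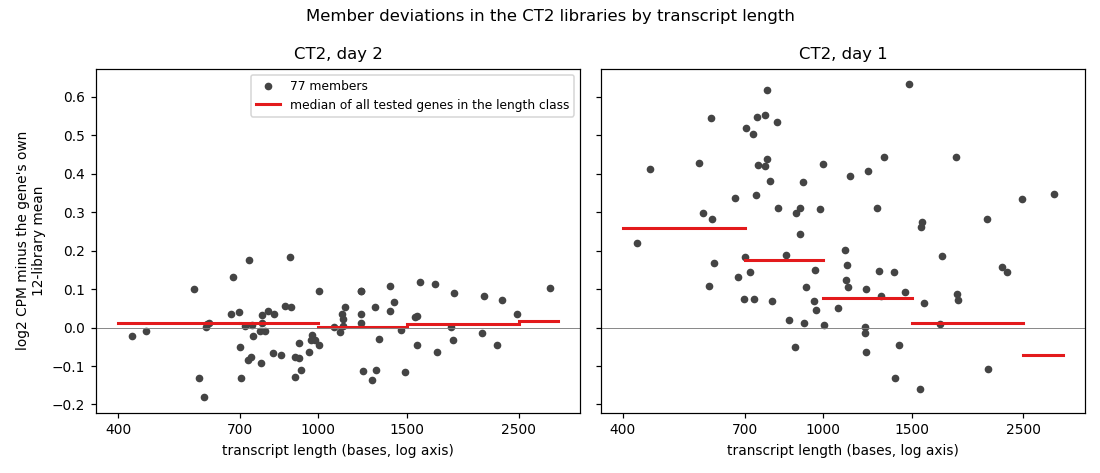
Log2 CPM relative to each gene's own mean against transcript length (log axis) in CT2 of day 2 (left) and CT2 of day 1 (right). Points are the 77 members and red lines the median of all tested genes in 5 length classes, which falls from 0.26 to -0.07 with length on day 1 and stays within 0.02 of 0 on day 2.

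Set against the average of the other 5 times, CT2 had higher member values, by a median log2 difference of 0.12 in CPM. On log2(TPM + 1) the members' median was -0.00, where all genes had -0.10. In CPM 70 of 77 were higher, against 49.2% of all tested genes. No member passed after adjustment over all genes (0 of 77, against 0.0061% of all genes) in edgeR's quasi-likelihood F test with Benjamini-Hochberg adjustment, nor in DESeq2 or limma. At an unadjusted p under 0.05 there were 27 members, all of them higher, which is 35.1% of 77, against 14.6% of all genes in either direction and 9.64% higher. Mrps16, a small subunit protein with a bacterial counterpart, had 40.2 CPM in CT2 of day 2 and 50.5 in CT2 of day 1, against 33.6 to 38.7 CPM in the other 10 libraries. Both CT2 libraries were above all others, and the log2 difference was 0.33 ± 0.08 (SE; adjusted p = 0.186). The difference was 0.14 without CT2 of day 1. Mrpl11, a protein of the factor-binding site of the large subunit, had 29.4 CPM in CT2 of day 2 and 34.8 in CT2 of day 1, against 23.5 to 29.2 elsewhere (0.28 ± 0.07, adjusted p = 0.208). Mrpl3 and Mrps30 were the other members whose CT2 libraries were both above the other 10, which makes 4 of 77 (5.19%), against 3.69% of all tested genes.

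Some members with large differences at CT2 were high in CT2 of day 1 only. Mrps14 had 32.3 CPM in CT2 of day 2 and 49.1 CPM in CT2 of day 1, against 28.4 to 32.5 CPM elsewhere (log2 difference 0.41 ± 0.12, adjusted p = 0.222). Mrpl42 had 47.2 CPM in CT2 of day 2 and 68.6 in CT2 of day 1, against 42.9 to 48.3 elsewhere (0.36 ± 0.10, adjusted p = 0.22). Mrpl35 had 23.5 and 39.6 CPM in CT2 of day 2 and day 1, against 22.5 to 26.1 elsewhere (0.36 ± 0.14, adjusted p = 0.28). In all 3 of these genes CT2 of day 2 lay within the range of the other times. Without CT2 of day 1 the members' median in this contrast was 0.02, 47 of 77 were higher, 0 passed and 1 had an unadjusted p under 0.05. Without CT2 of day 2 the median was 0.20, and 34 members passed, all higher, where 12.6% of all genes passed in either direction. On log2(TPM + 1) by limma the members' median was -0.00, with 36 of 77 higher, and the median of all genes was -0.10. Beside this, summed monocyte markers were 289 CPM in CT2 of day 2 and 826 CPM in CT2 of day 1, and summed B cell markers 122 and 226 CPM, and their part in the members' values was not tested.

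**Figure D4:**
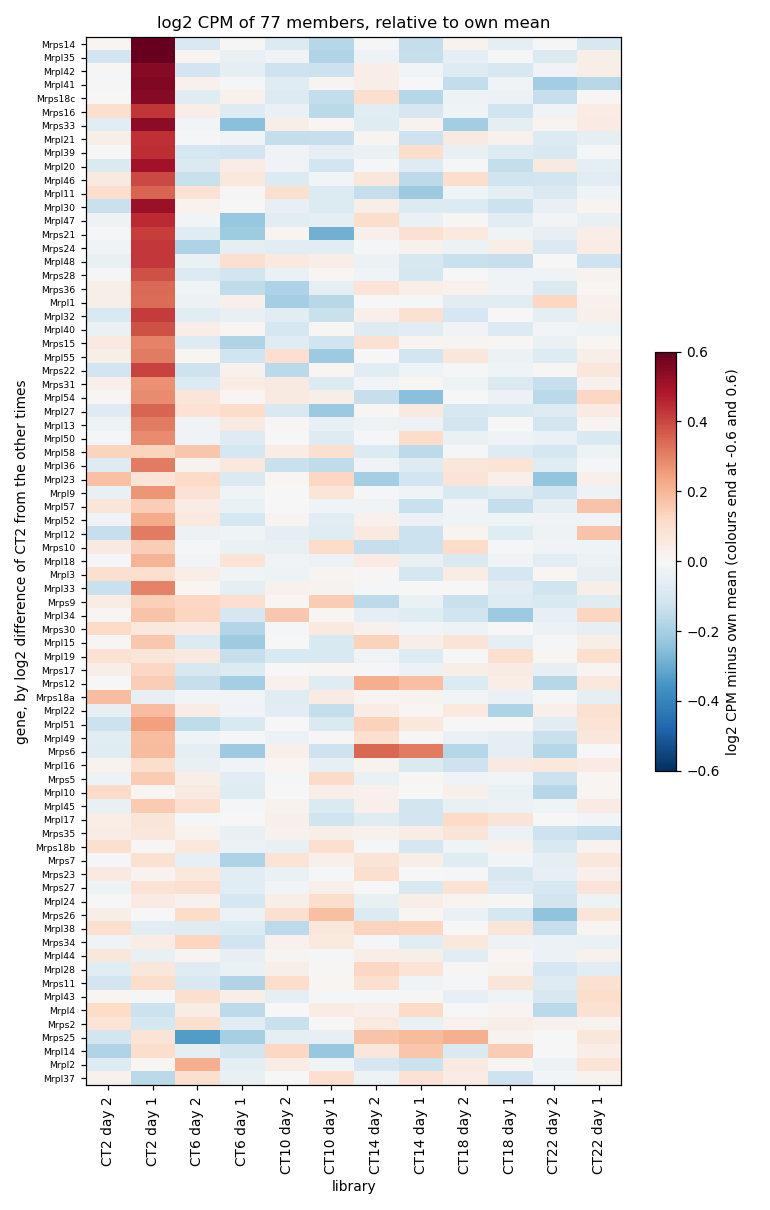
Log2 CPM of the 77 tested members relative to each gene's own mean, with genes ordered by their difference at CT2 and libraries by time, day 2 left of day 1. The column of CT2 of day 1 holds most of the strong colour, and Mrps6 is high in both CT14 libraries.

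A 24 h wave was not called in any member. The 24 h test fitted a smooth daily curve, given by its sine and cosine terms, and compared it with a flat line. It called 0 of 77 members, against 0% of all genes, by edgeR's quasi-likelihood F test with Benjamini-Hochberg adjustment, and 6 members (7.79%) had an unadjusted p under 0.05, against 13.3% of all genes. DESeq2 called 1 member, Mrps9, beside 1.5% of all genes, and limma 0. The members' amplitude, the log2 distance from mean to peak, had a median of 0.07, against 0.10 in all tested genes and 0.07 in genes of like level. This amplitude is a ratio of peak to trough of 1.10. The 6 members with the smallest p were Mrps9, Mrps25, Mrpl11, Mrps16, Mrpl19 and Mrpl1.

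Mrps9, a small subunit protein with a bacterial counterpart (chr1:42851233-42905683, plus strand), was higher from CT2 to CT10 than from CT14 to CT22. It had 57.7 and 62.0 CPM at CT2 (day 2 and day 1), 61.0 and 60.1 at CT6, 56.4 and 62.3 at CT10, 50.2 and 54.5 at CT14, 51.1 and 53.1 at CT18, and 52.5 and 53.3 at CT22. In CPM the lowest of the 6 libraries of CT2 to CT10 was above the highest of the 6 of CT14 to CT22. In TPM these ranges overlapped, with 47.9 in CT2 of day 1 and 49.4 in CT14 of day 1. This split was chosen after the values were seen, and the share of all genes that meet it was not counted. The amplitude was 0.13 ± 0.03 with a peak at 5.77 ± 0.80 h (adjusted p = 0.238 in edgeR), the smallest p of any member in this test. DESeq2 gave an adjusted p of 0.0179, and limma on log2(TPM + 1) gave an amplitude of 0.10 and an adjusted p of 0.492.

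Mrps25, a small subunit protein without a bacterial counterpart (chr6:92169525-92184033, minus strand), ran the other way. It had 16.2 and 18.5 CPM at CT2 (day 2 and day 1), 13.9 and 15.3 at CT6, 16.9 and 16.9 at CT10, 19.7 and 20.003 at CT14, 20.3 and 17.8 at CT18, and 17.5 and 18.3 at CT22. Both CT6 libraries were below the other 10, which held for 3 members (3.90%) and for 1.89% of all tested genes. The amplitude was 0.18 ± 0.05 with a peak at 17.3 ± 0.995 h (adjusted p = 0.249). Without both CT2 libraries its adjusted p was 0.0393, and it was the only member to pass in that fit, where 2.63% of all genes passed. Mrpl11 peaked at 3.13 h (amplitude 0.15 ± 0.04), Mrps16 at 1.58 h (0.15 ± 0.05) and Mrpl1 at 0.32 h (0.13 ± 0.05), and all 3 had their highest value in CT2 of day 1.

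The test of the 6 times, which allows any shape, called 0 of 77 members by edgeR's quasi-likelihood F test, against 0.256% of all genes, and DESeq2 and limma called 0. Here 6 members had an unadjusted p under 0.05 (7.79%, against 12.7% of all genes), namely Mrps25 (adjusted p = 0.28), Mrps9, Mrps6, Mrpl11, Mrps16 and Mrps15. By the mean of their 2 libraries, 55 of 77 members were highest at CT2, 12 at CT14, 5 at CT10, 3 at CT6, 2 at CT18 and 0 at CT22. Of all tested genes, 23.3% were highest at CT2, 18.2% at CT14, 21.8% at CT10, 13.6% at CT6, 8.90% at CT18 and 14.3% at CT22. With CT2 of day 1 left out, 23 members were highest at CT2, 20 at CT14, 11 at CT6, 11 at CT10, 8 at CT22 and 4 at CT18. CT2 was then 1 library, which varies more than the means of 2 at the other times, and 10 members were lowest at it. The 6 contrasts of 1 time with the mean of the other 5 share all 12 libraries, so they are not independent of each other.

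At CT14, early in the subjective night, 33 members were higher and 44 lower, with a median log2 difference of -0.01 (0.01 without CT2 of day 1). None passed (0 of 77, against 1.13% of all genes) in edgeR's quasi-likelihood F test, DESeq2 called 1 (beside 2.1% of all genes) and limma 0, and 10 members (13.0%) had an unadjusted p under 0.05, against 13.2% of all genes. Mrps6, a small subunit protein with a bacterial counterpart, had the largest difference. It had 12.4 and 14.9 CPM at CT2 (day 2 and day 1), 12.5 and 11.2 at CT6, 13.3 and 12.0 at CT10, 16.6 and 16.2 at CT14, 11.6 and 12.5 at CT18, and 11.6 and 13.1 at CT22. Both CT14 libraries were above the other 10. The log2 difference at CT14 was 0.39 ± 0.09 with an adjusted p of 0.0697 in edgeR and of 0.0454 in DESeq2. Over all alternatives the adjusted p ran from 0.012 to 0.61, and it was 0.017 without CT2 of day 1, a fit that called 4.04% of all genes.

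The gene Slc5a3, which encodes a cotransporter of sodium and myo-inositol and was chosen after its values were seen, showed the same time. It lies within the span of Mrps6 (chr16:92058270-92112227, plus strand) on the same strand, and 159 of the 1533 exon bases of Mrps6 (10.4%) are also exon of Slc5a3. Gm49711, a coding gene on the same strand, shares 305 of them (19.9%). Slc5a3 had 22.1 and 22.7 CPM at CT14 (day 2 and day 1), against 12.5 to 17.7 CPM in the other 10 libraries. Its log2 difference at CT14 was 0.62 ± 0.08 (adjusted p = 0.00466). Fragments of shared exons can belong to any of these genes. The CPM values rest on uniquely assigned counts, while RSEM shares out fragments that match several places. The part of shared fragments in the values of Mrps6 was not tested. With the estimated counts of RSEM, Mrps6 was 0.34 higher (adjusted p = 0.0957), and on log2(TPM + 1) 0.34 higher (adjusted p = 0.136).

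Mrps12 followed Mrps6 in order of p at CT14, with 17.4 and 16.95 CPM (day 2 and day 1), against 13.0 to 16.6 CPM elsewhere, a log2 difference of 0.24 ± 0.08 (adjusted p = 0.215). Sars2, the mitochondrial seryl-tRNA synthetase gene that starts 172 bases from Mrps12 on the other strand, had a difference of -0.09 ± 0.08. Mrps25 was 0.22 ± 0.08 higher (adjusted p = 0.235), while Mrpl11, Mrpl54 and Mrps10 were lower by log2 differences of -0.22 ± 0.07, -0.24 ± 0.09 and -0.16 ± 0.06. The members whose CT14 libraries were both above the other 10 were Mrpl28, Mrpl38, Mrps12 and Mrps6 (5.19%, against 4.72% of all tested genes). Those with both below were Mrpl11, Mrpl2 and Mrps10 (3.90%, against 5.07%).

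**Figure D5:**
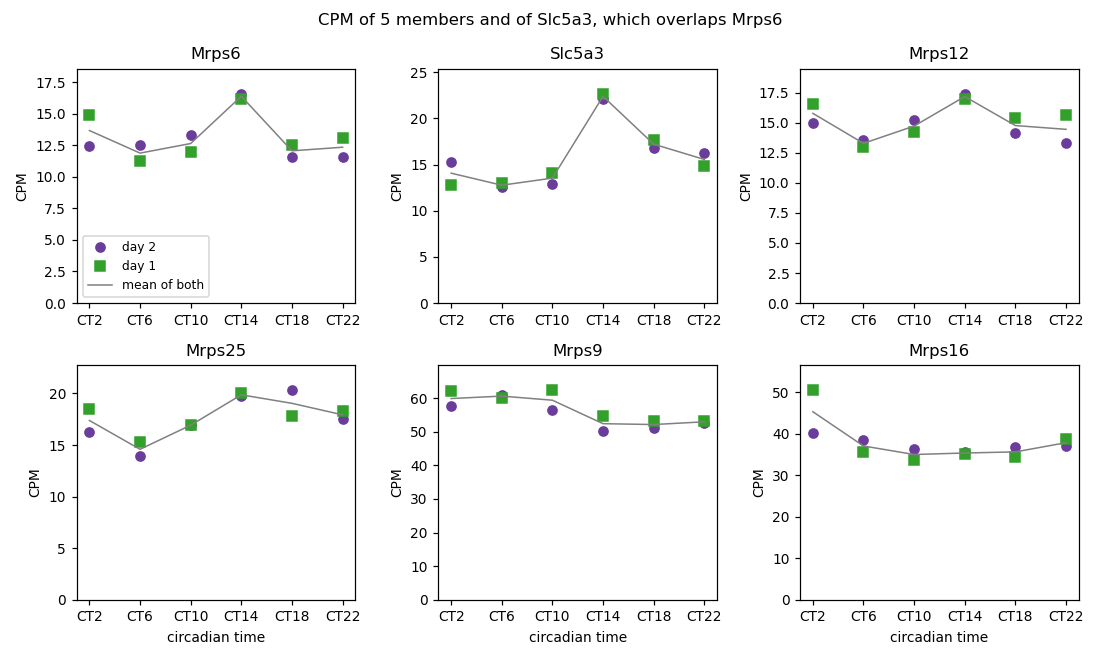
CPM by circadian time of 5 members and of Slc5a3, with circles for day 2, squares for day 1 and a line through the mean of both; axes start at 0. Mrps6, Slc5a3 and Mrps12 are highest at CT14, Mrps9 is lower from CT14 on, Mrps25 is lowest at CT6, and Mrps16 is high in CT2 of day 1.

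The remaining contrasts called 0 of 77 members each, in edgeR's quasi-likelihood F test, in DESeq2 and in limma. At CT6 the background was 0.0427% of all genes, and 7 members (9.09%, against 8.12%) had an unadjusted p under 0.05. Of these, Mrps25 (-0.32 ± 0.08, adjusted p = 0.313), Mrpl15, Mrps12, Mrps15, Mrps7 and Mrps17 were lower and Mrps9 was higher (0.13 ± 0.05). At CT10 all genes gave 0.0061% called and 12.3% unadjusted, and Mrpl1 alone of the members had an unadjusted p under 0.05. It had 16.7 and 17.2 CPM at CT10 (day 2 and day 1), below the 18.4 to 24.4 CPM of the other 10 libraries (-0.22 ± 0.08, adjusted p = 0.346). Both CT10 libraries were below the other 10 in 4 members (5.19%), against 2.37% of all tested genes. Without CT2 of day 2, 4 members passed at CT10, all lower (Mrpl1, Mrpl21, Mrpl36 and Mrpl42), and so did 5.07% of all genes in either direction, a share close to that of the members.

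At CT18 all genes gave 0% called and 2.59% unadjusted, and 2 members had an unadjusted p under 0.05. These were Mrps9 (-0.13 ± 0.06) and Mrpl34 (-0.20 ± 0.09), both lower. At CT22 the shares of all genes were 0% and 6.65%, and the 1 member was Mrps35, with 30.5 and 30.1 CPM at CT22 (day 2 and day 1), below the 32.2 to 35.0 CPM of the other 10 libraries (-0.16 ± 0.05, adjusted p = 0.441). Both CT22 libraries were below the other 10 in 2 members (2.60%), against 0.988% of all tested genes. The members' median log2 difference was -0.02 at CT6, -0.03 at CT10, -0.03 at CT18 and -0.03 at CT22. Without CT2 of day 1 these medians were 0.01, -0.02, -0.01 and -0.00, and on log2(TPM + 1) they were 0.02, -0.02, 0.01 and 0.01. On log2(TPM + 1) the medians of all genes were 0.02, 0.01, 0.04 and 0.02 in the same order.

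The 12 h test, for a second curve that repeats every 12 h beside the daily one, called 0 of 77 members, against 0.0488% of all genes, in edgeR's quasi-likelihood F test, and DESeq2 and limma called 0. At an unadjusted p under 0.05 there were 5 (6.49%, against 6.09%). They were Mrps6 (12 h amplitude 0.20 ± 0.05, adjusted p = 0.625), Mrps15, Mrps12, Mrpl42 and Mrpl15. Their fitted 12 h curves peak between 1.40 and 1.97 h and, by their form, again 12 h later. Mrps15 had 43.2 and 51.2 CPM at CT2 (day 2 and day 1) and 44.3 and 42.0 at CT14, against 36.7 to 42.1 CPM at the other 4 times. Mrpl42 had 47.2 and 68.6 CPM at CT2, but its 48.3 and 46.4 at CT14 were like the 46.4 and 48.2 at CT22. Both genes had their highest value in CT2 of day 1.

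The 6 libraries of day 2 and the 6 of day 1 differed little. No member passed (0 of 77, against 0% of all genes, in edgeR's quasi-likelihood F test, and 0 in DESeq2 and limma), and 1 had an unadjusted p under 0.05 (1.30%, against 1.82%). That member, Mrps22, had 15.1 to 16.9 CPM on day 2 (median 15.9) and 16.6 to 22.4 CPM on day 1 (median 17.1), a log2 difference of -0.16 ± 0.07. On day 2, 53 of 77 members were lower than on day 1, against 49.3% of all genes. The members' median log2 difference was -0.04 on the CPM scale and -0.00 on log2(TPM + 1), where all genes had medians of 0.00 and 0.03. Without CT2 of day 1 the members' median in CPM was 0.01, and 45 of 77 were higher on day 2. The 6 B cell markers were also lower on day 2, with a median of -0.50. Other cell markers went the other way, with 9 of 10 monocyte and macrophage genes (median 0.20) and 3 of 4 neutrophil genes (0.36) higher on day 2. The part of these cells in the members' difference was not tested. The 24 h wave differed between days in 0 of 77 members, against 0% of all genes, by edgeR's quasi-likelihood F test, and DESeq2 and limma called 0. At an unadjusted p under 0.05 there were 4 (5.19%, against 4.44%), of which Mrpl12 had the smallest p (adjusted p = 0.825). Mrpl12 was highest at CT14 among the libraries of day 2 (46.2 CPM) and at CT2 among those of day 1 (55.0 CPM).

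The members lay on 17 chromosomes, with 11 on chromosome 11 and 8 on chromosome 17. A coding gene started head to head with the member within 1000 bases in 18 of 78 (23.1%), against 10.2% of 12752 tested coding genes, and in none of the 18 was the partner another member. Mrpl32, for example, starts 75 bases from the proteasome gene Psma2, Mrpl49 starts 59 bases from the ribosomal protein gene Fau, and Mrps27 starts 81 bases from Ptcd2. The span of 26 members (33.3%) overlapped another coding gene, and in 4 the partner was on the same strand. The share of all coding genes with such overlaps was not counted, so these counts cannot be called high or low. These 4 were Mrpl53, Mrps6, Mrps24, which shares 226 exon bases with Urgcp, and Mrps34, which shares 763 exon bases with the nucleoside diphosphate kinase gene Nme3. Mrpl43 overlaps Twnk, the gene of the mitochondrial DNA helicase, on the other strand. The members Mrpl46 (chr7:78775236-78783531, minus strand) and Mrps11 (chr7:78783119-78792989, plus strand) overlap at the starts of both genes. This overlapping pair was not counted among the 18 head to head. All of these genes were chosen after values were seen.

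Other genes of mitochondrial translation gave no calls either. Over all genes, 0 of 5 ribosome partners without an Mrp symbol, 0 of 16 translation factors, 0 of 25 rRNA and assembly factors, 0 of 19 tRNA synthetases and 0 of 15 regulators of mitochondrial biogenesis passed edgeR's 24 h test, and 0 of each passed the test of times. At an unadjusted p under 0.05 the 24 h test held 0, 0, 3, 2 and 1 of them in this order, shares no higher than the 13.3% of all genes. Of the partners, Chchd1 had 81.1 ± 11.4, Aurkaip1 79.6 ± 5.24, Dap3 79.0 ± 5.18, Ptcd3 46.7 ± 2.31 and Gadd45gip1 15.9 ± 0.89 TPM (SD, n = 12), within the span of the members. Gtpbp10, a GTPase of large subunit assembly, had a 24 h amplitude of 0.18 ± 0.05 with a peak at 2.14 h, and Noa1, a GTPase of small subunit assembly, 0.11 ± 0.03 with a peak at 15.5 h. Of the translation factors, Taco1 and Mtrf1 had amplitudes of 0.11 ± 0.04 and 0.17 ± 0.07.

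Lars2, the mitochondrial leucyl-tRNA synthetase gene, had 342 to 1039 CPM and a 24 h log2 amplitude of 0.49 ± 0.09 with a peak at 15.9 h (adjusted p = 0.238), and Rars2 had 0.10 ± 0.04. Of the regulators, Max and Ppargc1b had 0.11 ± 0.03 and 0.13 ± 0.05. Of the 13 mRNAs that the mitochondrial ribosome translates, 0 passed and 5 had an unadjusted p under 0.05 (13.3% of all genes had), led by mt-Nd2 and mt-Nd1 with amplitudes of 0.18 ± 0.04 each. All 13 were higher at CT2 than at the other times, by a median log2 difference of 0.25, and 8 had an unadjusted p under 0.05 there, against 14.6% of all genes. Relative to their own means they lay a median of 0.12 higher in CT2 of day 2 and 0.25 higher in CT2 of day 1, beside 0.00 and 0.19 for the members. The difference between these sets was not tested. The libraries had been selected for polyadenylated RNA, which captures mitochondrial mRNAs unevenly.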

How the data were processed

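Polyadenylated RNA from 12 libraries was sequenced. RSEM 1.2.28, STAR 2.5.1b, Trimmomatic 0.35 and bcl2fastq 2.19 are named, with build GRCm38, by the submitters' processing notes, while the annotation used for counting is not given in the sources used here. Deposited by the authors were raw counts per gene (column 4, 1 strand of the library) and, from RSEM, estimated counts and TPM with gene lengths. Counts were tested as deposited, after 4 summary entries that name no gene, which held 29.3 to 31.2% of each total, were set aside. Identifiers were matched to GENCODE M21, and 50376 of 50600 were found there.

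Genes kept by edgeR's filter (16396) were scaled by TMM factors and fitted with edgeR 4.0.16 in R 4.3.3, and p-values were adjusted by Benjamini-Hochberg over all of them with a threshold of 0.05. All 12 libraries entered each fit. Log2 CPM used a prior count of 2, and limma was run on log2(TPM + 1) and log2(TPM + 0.1). Alternatives were DESeq2 1.42.0, limma 3.58.1, upper-quartile factors, no filter, unstranded counts, RSEM estimated counts rounded to whole numbers, the day as a block, and leaving out libraries. Depth limits precision, and TPM carries none. On simulated data with 50 changed genes per size, 70% of differences of 0.5 (log2) at CT14 were recovered. For 24 h amplitudes the share was 18% at 0.2 and 92% at 0.4. The simulated libraries varied independently around flat levels, without the shift of CT2 of day 1 or changes in cell mix. These shares therefore need not hold for the real libraries. Same-numbered libraries are those of 1 day by the labels, so the numbers pair the libraries. Their deviations from the time means correlated between -0.61 and 0.34 (median 0.08, 6 of 15 pairs over 0.1, in 8931 genes of at least 10 CPM).

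Members named are the 8 highest and 5 lowest by TPM, those of smallest p or largest difference in each test, those called, and a few named for their role. Any other named gene was chosen after its values were seen. The members and lists were chosen with earlier results of these data known.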

Additional observations from a re-analysis of the deposited data

Results flagged for a closer look

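Dixon's rule was applied within the 6 libraries of each day to 45 members and 4 summaries of the members, and a library stood apart in 30 of these 98 groups of values. Chance flags about 1 in 20 independent groups, but these groups share their libraries, and many of the 45 were named for small p-values in these data, so the count cannot be read against that rate. Of the 30, 6 were on day 2 and 24 on day 1, and 23 of those on day 1 were CT2.

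On day 2, CT22 was low in the members' median log2 deviation (-0.056, others -0.01 to 0.00), in their summed CPM (2408, others 2495 to 2538) and in Mrps35 (30.5 CPM, others 33.7 to 35.0). CT14 was high in Mrpl32 (26.2 CPM, others 23.9 to 24.7) and in Mrps6 (16.6 CPM, others 11.6 to 13.3). CT2 was high in Mrps18a (28.3 CPM, others 23.7 to 25.2).

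On day 1, CT6 was high in the ratio of summed large to small subunit TPM (1.80, others 1.68 to 1.73). CT2 was high in the members' median log2 deviation (0.19, others -0.05 to 0.02) and in their summed CPM (2925, others 2426 to 2540). It was also high in 21 of the 45 members examined; the other members and all other genes were not put through this rule. Of the large subunit genes, its CPM was 104 for Mrpl30, 68.6 for Mrpl42, 44.4 for Mrpl33, 42.6 for Mrpl21, 41.0 for Mrpl52, 40.0 for Mrpl13, 39.6 for Mrpl35, 37.5 for Mrpl48, 34.8 for Mrpl11, 34.4 for Mrpl32, 33.1 for Mrpl41, 25.8 for Mrpl46 and 24.4 for Mrpl1. Of the small subunit genes it was 51.2 for Mrps15, 50.5 for Mrps16, 49.1 for Mrps14, 42.6 for Mrps24, 22.4 for Mrps22, 21.1 for Mrps31, 19.7 for Mrps18c and 13.9 for Mrps36.

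The pseudogene Mrpl23-ps1, which is no member, had a mean of 14 counts per library (8 to 20), above the 3 counts that a count of 0 allows in every library. Mrpl48-ps had a mean of 8.5 (3 to 19) and Mrps36-ps1 of 4.5 (1 to 9), above that limit in their means but not in every library.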

How the results depend on the processing

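The count of members called was 0 in all 11 tests. With DESeq2 the 24 h wave called 1 (Mrps9; 1.5% of all genes) and CT14 1 (Mrps6; 2.1%). With no filter the circadian times called 6 of 78 (7.17% of all genes), the 12 h wave 1 (1.83%), CT2 12 (3.15%) and CT14 1 (2.3%). Without both CT2 libraries the 24 h wave called 1 (Mrps25; 2.63% of all genes) and CT14 1 (Mrps6; 3.59%). Leaving out 1 library at a time gave 0 to 21 for the circadian times, 0 to 34 for CT2, 0 to 4 for CT10 and 0 to 1 for CT14, and the highest of each came without CT2 of day 2 (for CT14, without either CT2 library). In the fit without CT2 of day 2 the shares of all genes were 11% for the times, 12.6% for CT2, 5.07% for CT10 and 3.97% for CT14. The alternative without CT2 of day 1 and with the day as a block, chosen after seeing the data, called 1 at CT14 (Mrps6; 3.42% of all genes). Every other alternative run called 0, and the cause of these changes was not tested.

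With the day as a replicate block, 0 members were called in each test that has no day term, and the adjusted p of Mrps6 at CT14 was 0.116. Calls over all genes were 20 with the block and 42 without it for the circadian times, 96 and 186 for CT14, 4 and 7 for CT6, and 4 and 8 for the 12 h wave.

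Over all genes, DESeq2 called 246 genes for the 24 h wave (0 in edgeR), 516 for the times and 345 at CT14. With no filter the calls were 323, 2146 and 688, and without both CT2 libraries 431, 526 and 588. The 12 h, CT2, CT6, CT10 and CT22 tests called 8, 1, 7, 1 and 0 genes in edgeR, 68, 104, 58, 73 and 60 in DESeq2, and 548, 943, 293, 938 and 618 with no filter. Limma on log2(TPM + 1) called 14 genes for the times, 30 at CT14, 1 at CT6 and 0 for the 12 h wave. Leaving out 1 library at a time gave 0 to 142 genes for the 24 h wave, 6 to 1800 for the times, 0 to 92 for the 12 h wave, 0 to 2058 at CT2, 0 to 78 at CT6, 0 to 832 at CT10, 17 to 663 at CT14 and 0 to 387 at CT22. The highest of these came without CT2 of day 2, except at CT14 and CT22, where it came without CT2 of day 1.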
